A study of Mus musculus with 100 samples.

Results

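H3K27ac in unstimulated macrophages that lack PGC1b was compared with H3K27ac in floxed control macrophages. The 4 libraries, of 100 labelled samples in the series, are 2 of bone marrow-derived macrophages (BMDMs) from PGC1b flox/flox mice (flox) and 2 of BMDMs from PGC1b flox/flox, LysMCre mice (Cre), all given vehicle (Veh). They were chosen as the Veh libraries of a table that also holds 2 flox and 2 Cre libraries treated for 6 h with KLA (Kdo2 lipid A, a TLR4 agonist). All 8 libraries carry floxed Pgc1b alleles and are described as C57Bl6, and the study used flox mice as its wild type for this comparison. The mice were adult, and the labels do not say which animals or how many gave each library. The p-values measure the spread between 2 samples a group, estimated jointly over the 8 libraries. Cre is driven by the lysozyme M locus (Lyz2), which is active in macrophages and in other myeloid cells, and the Cre mice differ from the flox mice in that knock-in as well as in Pgc1b.

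PGC1b (gene Ppargc1b) is a transcriptional coactivator without DNA-binding activity of its own. It is known for raising mitochondrial biogenesis and oxidative metabolism together with estrogen-related receptors (ERR) and nuclear respiratory factors, in macrophages as in osteoclasts. H3K27ac, acetylated lysine 27 of histone H3, is laid down by p300 and CBP, and marks promoters and enhancers in use. In macrophages most enhancers carry PU.1, the lineage factor encoded by Spi1, which binds purine-rich sites with a GGAA core.

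The table lists 29767 windows of 1000 bp centred on open chromatin, of which 25197 held at least 16 tags in at least 1 of the 8 libraries and were tested. Levels are tags per 10 M (mega) tags of the library, in the order replicate 1 and replicate 2. Libraries held 14.4 to 17.8 M tags with Veh. Replicates correlated with Pearson's r of 0.972 in flox and 0.973 in Cre over log2 values of the windows. The windows took 35.8 and 35.9% of the tags in the flox Veh libraries and 31.6 and 30.9% in the Cre Veh libraries. Those shares do not overlap, and the median log2 difference (Cre minus flox) over all tested windows was -0.20 when libraries were scaled by their totals. TMM factors, which set the bulk of the windows to no change, put this median at 0. Each log2 difference below is scaled by totals unless TMM is named, and the part of the lower share of tags in windows in any difference was not tested.

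H3K27ac changed at few windows. A window was called at an adjusted p under 0.05 (edgeR, Benjamini-Hochberg over all tested windows) and more than a 2-fold difference. By this rule 100 windows were called, 0.397% of those tested, of which 27 were higher in Cre (0.107%) and 73 lower (0.29%). With TMM factors 37 windows (0.147%) were called, 31 higher and 6 lower, and 25 of them were among the 100. After the Cre libraries were centred on a median of 0, 34 windows (0.135%) were called, 29 higher and 5 lower. Without the fold minimum 3731 windows (14.8%) were lower and 88 (0.349%) higher, so most of the shift was of less than 2-fold. Each omission of 1 Veh library gave a similar number of calls at largely other windows. Of the 100, 45 remained without flox replicate 1, 40 without flox replicate 2, 35 without Cre replicate 1 and 34 without Cre replicate 2, among 103, 85, 112 and 75 calls, and 11 remained in all 4 cases. The number called higher was 28, 26, 15 and 18 in these cases, so that the 27 moved most without Cre replicate 1. These 11 were 2 windows listed to Gm1966, 2 listed to Knop1, and 1 each listed to Ptpn11, Met, Cdx4, Mtmr10, Trafd1, Zadh2 and 4930428O21Rik. A window is listed to the gene with the nearest transcription start site (TSS), which need not be the gene it acts on.

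**Figure D1:**
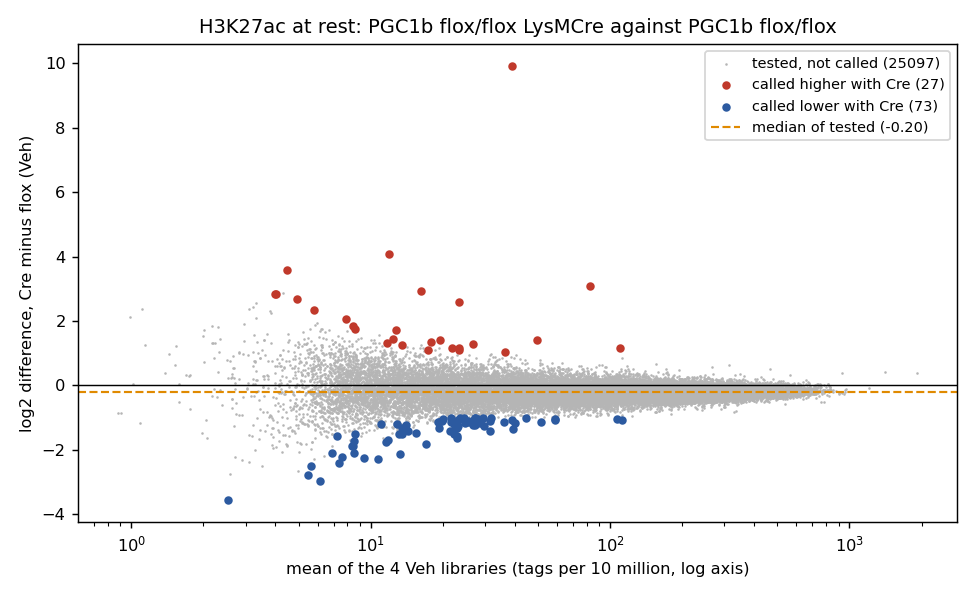
Log2 difference in H3K27ac (Cre minus flox, Veh, y axis) against the mean level of the 4 Veh libraries (x axis, tags per 10 M, log axis) for 25197 windows, with 27 called higher in red and 73 called lower in blue. The called windows sit at low levels, the grey cloud narrows around the dashed median of -0.20 as levels rise, and 1 point, the intron window of Gm1966 at 9.93, stands far above all others.

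Called windows were weak ones. The median tested window held 548 tags over the 4 Veh libraries, against 101 for the 27 higher and 142 for the 73 lower windows. The 6305 windows with the fewest tags (6 to 196) held 22 of the 27 and 60 of the 73, and the 6294 with the most tags held none. The median flox level was 6.63 at the windows called higher, where 26 of 27 had a flox mean under 30, and their median Cre level was 23.7. At the windows called lower the medians were 31.3 in flox and 13 in Cre, against a median flox level of 92.6 over all tested windows. A window with few tags passes the filter through the group in which it is high. Of the called windows 22 of 27 and 50 of 73 were distal, more than 2 kb from a TSS, as were 60.4% of all tested windows.

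The most different windows lay on chromosome 7 at Gm1966, a predicted gene beside Gm4759, which the file describes as a pseudogene of the very large interferon-inducible GTPases. In its first intron (chr7:106616619-106617619, intron 1 of 2) H3K27ac was 0 and 0 in the flox Veh libraries and 67.3 and 88.2 in the Cre Veh libraries. The floxed libraries held no tag there, which over both allows up to 0.93 tags per 10 M (3 tags), so that the Cre mean of 77.8 was at least 83.6-fold higher (adjusted p = 1.65e-39, edgeR). The same window held 0 and 0.62 in the flox KLA libraries and 91 and 91.8 in the Cre KLA libraries. None of the 4 flox libraries thus held more than 1 tag, and all 4 Cre libraries held the signal.

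Upstream of Gm1966 (chr7:106651589-106652589, intergenic, -7444 bp from the TSS) H3K27ac was 26.4 and 6.24 in flox and 149 and 149 in Cre with Veh, a log2 difference of 3.10 ± 0.20 (SE, n = 2, adjusted p = 5.54e-45, edgeR). The 2 flox libraries lay far apart here (47 and 9 raw tags), and the SE draws on a spread estimated over all 8 libraries. With KLA H3K27ac rose in both genotypes, to 128 and 176 in flox and 261 and 247 in Cre, and the difference was 0.74 ± 0.13. In a further intron window (chr7:106612421-106613421) H3K27ac was 15.7 and 13.9 in flox and 38.7 and 25.2 in Cre, a log2 difference of 1.11 ± 0.37 (adjusted p = 0.0259). This last call ended without flox replicate 1 (1.2, adjusted p = 0.0968), without flox replicate 2 (1.02, 0.145) and without Cre replicate 1 (0.76, 0.34). In the KLA libraries, whose levels did not enter the Veh difference, it was 1.5 ± 0.39. The neighbours showed no such difference, with 68.4 and 86.6 against 77.9 and 80.9 at the nearest window listed to Gm4759 (0.04 ± 0.18) and 8.98 and 4.85 against 6.86 and 2.65 near Olfr698 (-0.54 ± 0.79).

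About 12.1 Mb further along chromosome 7, both called windows listed to Knop1, a nucleolar protein gene, lie in introns of another gene, transcript NM_027815 (9030624J02Rik). In its intron 26 H3K27ac was 0 and 2.77 in flox and 20.6 and 24.5 in Cre, a log2 difference of 4.08 ± 0.78 (adjusted p = 3.74e-05). In its intron 19 (chr7:118799745-118800745) it was 27.5 and 27 against 73 and 71 (1.40 ± 0.27, adjusted p = 5.23e-05). In both windows the groups lay far apart and replicates were close. Another window of intron 19 (chr7:118797674-118798674) went from 164 and 161 to 228 and 224, a log2 difference of 0.47 ± 0.13 (adjusted p = 0.00611) that was under 2-fold. The promoter of the same transcript held 33.1 and 43 in flox and 49.3 and 35.8 in Cre (0.17 ± 0.28, adjusted p = 0.733), which overlap, and Coq7, Gde1, Iqck and Gprc5b nearby had log2 differences from -0.41 to 0.03, none of them past the threshold.

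The 200 bases at the centres of 3 of these chromosome 7 windows are shown, from the GRCm38.p6 reference (mm10, plus strand), because these loci carry the largest differences. Capitals mark the core letters searched for PU.1 (GAGGAA, or TTCCTC on the plus strand).
Gm1966 intron 1, chr7:106617019-106617218: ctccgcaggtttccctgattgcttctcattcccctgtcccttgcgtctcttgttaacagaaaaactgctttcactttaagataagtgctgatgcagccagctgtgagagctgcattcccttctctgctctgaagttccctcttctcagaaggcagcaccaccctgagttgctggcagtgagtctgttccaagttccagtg
Upstream of Gm1966, chr7:106651989-106652188: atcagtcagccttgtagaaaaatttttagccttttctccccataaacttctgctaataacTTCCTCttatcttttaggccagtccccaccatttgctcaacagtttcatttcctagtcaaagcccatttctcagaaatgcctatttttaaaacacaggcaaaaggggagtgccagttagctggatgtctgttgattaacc
NM_027815 intron 19, chr7:118800145-118800344: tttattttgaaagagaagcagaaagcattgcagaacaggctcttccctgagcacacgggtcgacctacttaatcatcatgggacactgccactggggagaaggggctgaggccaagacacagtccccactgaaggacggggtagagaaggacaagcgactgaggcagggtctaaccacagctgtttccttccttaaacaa
The intron 1 window of Gm1966 is largely repeated in the reference: 26.9% of its 31-base words occur once, and a word occurs up to 133 times. The upstream window is mostly single-copy (96.7%), and in intron 19 all 31-base words (100%) occur once. Reads from other copies may fall in the first window, while the intron 19 window has no other copy in the reference.

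All 5 windows of chromosome 7 called higher with Veh lay in these loci, and the 147 tested windows between the loci held no call with Veh and had a median log2 difference of -0.24. Mouse chromosomes have a single long arm. The windows called higher with KLA on this chromosome, 10 in number, all lay from the Lrrc32 window (chr7:98522250) onward. In that stretch 744 windows were tested, of which 5 were higher with Veh and 10 with KLA, and the 789 tested windows before it held none in either condition. Calls of lower H3K27ac did not divide in this way, with 5 before and 2 after with Veh and 41 before and 64 after with KLA. The boundary was drawn after the values were seen, and no test was made of it. With KLA, chromosome 7 had 10 windows called higher of 1533 tested, beside 20 of 1446 on chromosome 6 and 17 of 1476 on chromosome 11. Over all chromosomes 177 of 25197 (0.702%) were called higher, so chromosome 7 as a whole held no excess of them. In either direction 1894 windows (7.52%) were called.

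**Figure D2:**
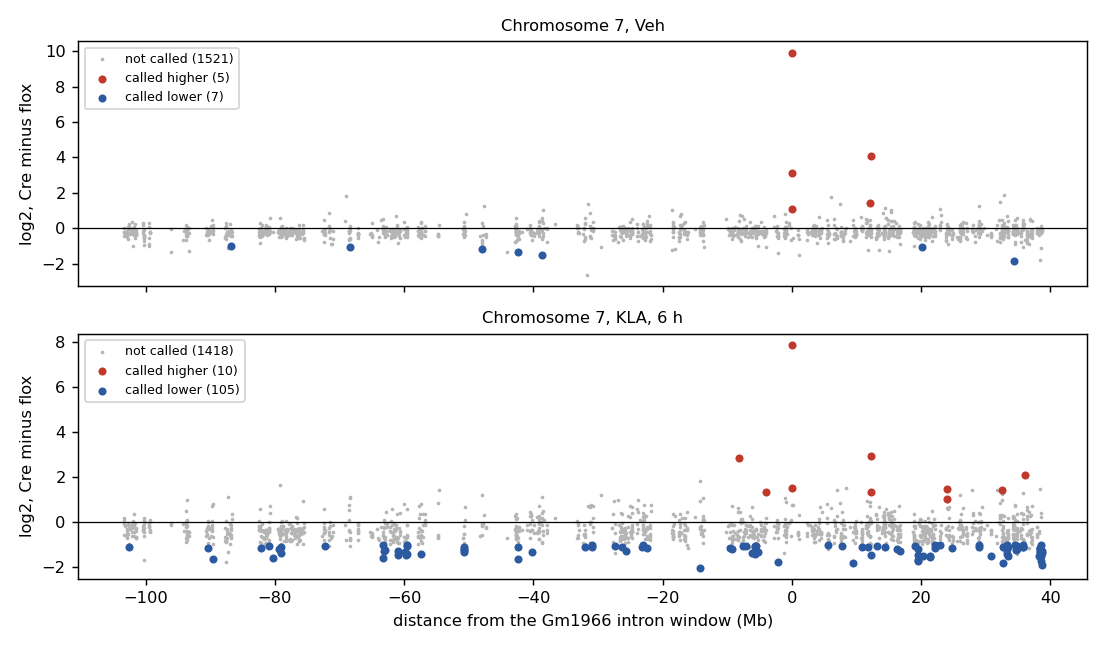
Log2 difference (Cre minus flox, y axis) of all 1533 tested windows of chromosome 7 against distance from the intron 1 window of Gm1966 (x axis, Mb), with Veh (top) and KLA (bottom). With Veh the 5 red points (called higher) stand at 2 places 12.1 Mb apart while the 7 blue points (called lower) are scattered, and with KLA the 10 red points lie in the right part of the chromosome.

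The same windows held most H3K27ac in wild-type BMDMs of another experiment of the series (WT DMSO Veh, another library date), which are set beside them without a test. The WT libraries held 190 and 160 tags per 10 M in intron 1 of Gm1966, 499 and 436 upstream of it, 59.8 and 57.6 in intron 26 of NM_027815 and 203 and 171 in its intron 19. Relative to the WT mean, flox stood at 0, 3.49, 2.36 and 14.6% and Cre at 44.4, 31.8, 38.4 and 38.4% of these levels. Over all tested windows flox stood at a median of 122% and Cre at 106% of WT. Cre was thus between flox and WT at each of these windows. With KLA, Cre stood at 31.4, 31.9, 72.8 and 39.1% of the WT KLA level and flox at 0.107, 19.1, 9.01 and 21.1%.

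At 23 tested windows both WT libraries held at least 20 and more than 5 times the level of both flox Veh libraries, and 5 of the 23 lay on chromosome 7. Of these 23, 8 were also that low in both Cre libraries and 6 were among the windows called higher in Cre, 4 of them those on chromosome 7. Over all tested windows 0.107% were called higher. The 23 were chosen by low values in the flox Veh libraries, which are also 1 side of that call, so the choice favours such calls. The fifth window on chromosome 7, listed to Trim30d (chr7:104507374-104508374), was low in both genotypes, with 6.73 and 6.93 in flox and 1.87 and 3.32 in Cre against 93 and 101 in WT. The converse also occurred. At 21 windows both groups held more than 5 times the WT level, as at Nlrp1b on chromosome 11, the gene of an inflammasome sensor (chr11:71230418-71231418), with 416 and 404 in flox, 357 and 387 in Cre, and 0 and 0 in WT. Windows that were near 0 in 1 set of libraries and high in the other were thus found in both directions, and the part of strain background in them, and in the calls on chromosome 7, was not tested.

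**Figure D3:**
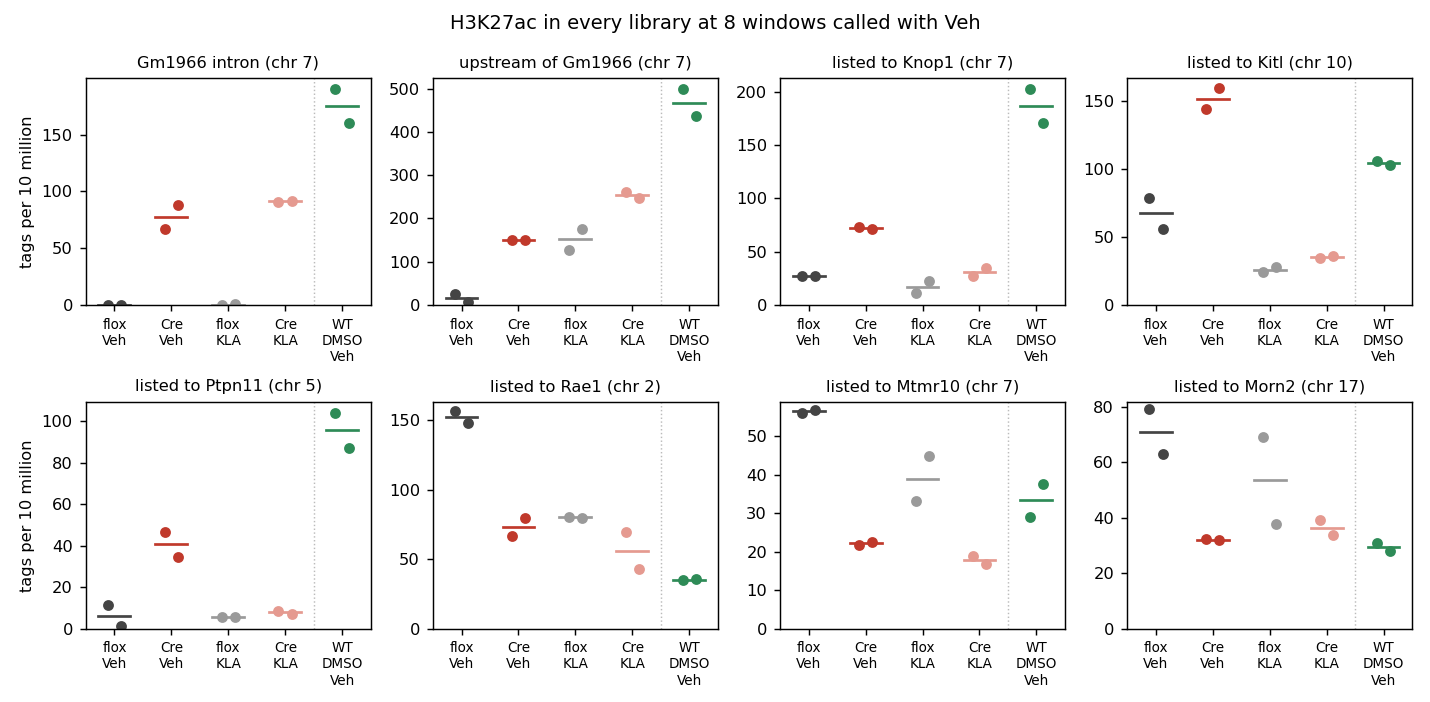
H3K27ac (tags per 10 M, y axis from 0) in every flox and Cre library with Veh and KLA and in the WT DMSO Veh libraries of another experiment (right of the dotted line), at 8 windows called with Veh. Points are libraries and bars are means of 2. In the Gm1966 and Knop1 panels Cre lies between flox and WT, and in the Rae1, Mtmr10 and Morn2 panels flox Veh is the highest group.

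Another floxed line of the series offered a further look at chromosome 7. In the libraries of NCoR-deficient BMDMs (NKO, also made with LysM-Cre) and their floxed controls, H3K27ac over narrower windows upstream of Gm1966 (chr7:106651935-106652212) was 30.3 and 39.2 in controls and 50.9 and 47.6 in NKO with Veh, a log2 difference of 0.49 ± 0.28 (adjusted p = 0.39, edgeR). At the intron 19 window (chr7:118800078-118800388) it was 20.8 and 24.4 against 39.8 and 41.8 (0.85 ± 0.37, adjusted p = 0.242). Neither difference passed the threshold, and with TMM factors they were 0.19 (adjusted p = 0.905, edgeR) and 0.55 (adjusted p = 0.73). At an intron window of Gm1966 (chr7:106612746-106613034) the levels were 0.63 and 9.17 against 13.3 and 9.29 (1.13 ± 0.82, adjusted p = 0.517). With KLA the groups overlapped upstream of Gm1966, at 56 and 43.4 against 47.3 and 52.1. They also overlapped at intron 19, at 8.17 and 17.9 against 19.6 and 17.4. The median with Veh over that table was 0.30. These values were looked at after the chromosome 7 differences had been seen.

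Several other windows gained H3K27ac in Cre from a low level in flox. At an intergenic window listed to Ptpn11, the gene of the phosphatase SHP2 (chr5:121122077-121123077, 68820 bp from the TSS), H3K27ac was 11.2 and 1.39 in flox and 46.8 and 34.5 in Cre, a log2 difference of 2.60 ± 0.46 (adjusted p = 8.33e-06). In the WT libraries it was 104 and 87.2, and with KLA it was 5.51 and 5.58 in flox and 8.67 and 7.16 in Cre, a difference of 0.50 ± 0.58 that did not pass the threshold. At the promoter of Met, the receptor for hepatocyte growth factor (chr6:17463008-17464008), it was 0.561 and 0.693 in flox and 9.35 and 7.30 in Cre (3.59 ± 0.92, adjusted p = 0.00246). Flox held 2 tags there in all and Cre 26, a ratio of 13.5 with a 95% counting interval of 3.37 to 117, and with KLA Met stood at 21.4 and 23.6 in flox and 14.4 and 15 in Cre. Near Cdx4, a homeobox gene on chromosome X, the levels were 3.93 and 3.46 against 20 and 37.8 (2.93 ± 0.56, adjusted p = 3.07e-05). At each of these windows both Cre libraries exceeded both flox libraries, as at all 27 called higher and at 7.05% of all tested windows. Among the 15 called higher with the lowest p, Adgrf1, 1700044K03Rik and Grk3 had log2 differences of 2.68, 1.42 and 1.11. Each of them lost its call in some omission of 1 Veh library.

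The window called higher with the most tags outside chromosome 7 was at Kitl, the ligand of the receptor Kit (chr10:99945002-99946002, -70319 bp from the TSS). H3K27ac was 79.1 and 56.1 in flox and 144 and 160 in Cre, a log2 difference of 1.15 ± 0.19 (adjusted p = 1.03e-06), and WT stood between them at 106 and 103. Without flox replicate 2 the log2 difference was 0.94 (adjusted p = 0.0037), under 2-fold. With KLA all 4 libraries were lower, at 23.9 and 27.9 in flox and 34.7 and 35.8 in Cre (0.44 ± 0.26). Adora2a, the gene of the adenosine A2a receptor, held 5.61 and 1.39 against 15.6 and 11.3 in an intron (1.84 ± 0.46, adjusted p = 0.00207). Its call ended without flox replicate 2 (1.25, adjusted p = 0.111) or Cre replicate 1 (1.58, 0.0755), and with KLA the levels, 123 and 114 against 123 and 87.9, overlapped.

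Further higher windows lay near the assembled starts of chromosomes 9, 11 and 18, those of chromosome 9 in repeats. The first assembled bases of chromosome 9 hold a window listed to Mir101c (chr9:3021623-3022623) with 25.8 and 21.5 in flox and 49.3 and 48.4 in Cre with Veh (1.04 ± 0.27, adjusted p = 0.00328). With KLA the levels were 41.6 and 24.2 against 88.1 and 65.1 (1.21 ± 0.25). Without flox replicate 2 the Veh value was 0.92 (adjusted p = 0.0606). Its centre is shown as an example of repeat sequence, with the same letters in capitals.
Near Mir101c, chr9:3022023-3022222: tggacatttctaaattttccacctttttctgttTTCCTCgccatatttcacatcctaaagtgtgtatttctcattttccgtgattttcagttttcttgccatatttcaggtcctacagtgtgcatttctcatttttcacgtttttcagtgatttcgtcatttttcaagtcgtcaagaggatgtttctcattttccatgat
Of its bases 96% are repeat-masked and 4.02% of its 31-base words occur once in the reference. With TMM factors 2 further windows of this stretch were called (log2 differences of 1.07 and 1.09), and 4 within the first 10 Mb of chromosome 11 (1.01 to 1.49, from chr11:3187023 in Sfi1, a centrin-binding protein gene, to Eif4enif1). That was the fullest 10 Mb bin by this scaling. These 4 windows were 80.1 to 96.7% single-copy by their 31-base words. The Sfi1 window that was called by both scalings held 10.1 and 21.5 in flox and 37.4 and 37.8 in Cre, and its call ended without flox replicate 1 (0.81, adjusted p = 0.173). Over the 465 tested windows of which most bases were repeat-masked, the median log2 difference was -0.08, against -0.21 over the other 24732. Of the 27 windows called higher, 5 (18.5%) were mostly masked and 5 had most of their 31-base words repeated, as against 1.85% of all tested windows and 4.37% of every 10th. The 22 others, and 71 of the 73 called lower, were mostly single-copy.

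Windows called lower were more numerous and smaller in size, and of the 15 with the lowest p, 6 were also called with TMM factors (Zadh2, Mtmr10, Ctgf, 4930428O21Rik, N4bp2l1 and Tcf4). In intron 9 of Mtmr10, a myotubularin-related protein gene (chr7:64318258-64319258), H3K27ac was 56.1 and 56.8 in flox and 21.8 and 22.6 in Cre, a log2 difference of -1.34 ± 0.29 (adjusted p = 0.000313). KLA libraries, whose levels did not enter the Veh difference, gave -1.12 ± 0.32, and WT held 29.1 and 37.5. With TMM factors the values were -1.14 with Veh and -0.73 with KLA. Its centre is printed as an example of a window called lower in both treatments, of which there were 8.
Mtmr10 intron 9, chr7:64318658-64318857: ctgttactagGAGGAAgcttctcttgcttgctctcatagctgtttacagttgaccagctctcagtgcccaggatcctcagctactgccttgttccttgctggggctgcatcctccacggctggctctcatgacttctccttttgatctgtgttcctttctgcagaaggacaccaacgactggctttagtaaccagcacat
Upstream of Ctgf, which encodes the matrix protein CCN2 (chr10:24591448-24592448), H3K27ac was 35.9 and 33.9 in flox and 14.3 and 7.96 in Cre (-1.63 ± 0.36, adjusted p = 0.000319), and the call ended without Cre replicate 2 (-1.28, adjusted p = 0.0553). At 4930428O21Rik on chromosome 5 it was 29.2 and 36.7 against 12.5 and 10.6 (-1.5 ± 0.35). Flox exceeded Cre in both libraries at each of these windows, as at all 73 called lower and at 50% of all tested windows. Calls at N4bp2l1 ended without flox replicate 2 (-1.16) or Cre replicate 2 (-1.11), and at Tcf4 without Cre replicate 2 (-2.29, adjusted p = 0.0508).

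The other 9 of these 15 were not called with TMM factors. At the promoter of Rae1, an mRNA export factor (chr2:172999431-173000431), H3K27ac was 157 and 148 in flox and 66.7 and 79.6 in Cre, a log2 difference of -1.06 ± 0.18 (adjusted p = 1.2e-06), or -0.85 with TMM (adjusted p = 0.00086). Without Cre replicate 1 it was -0.94. WT held 34.9 and 35.8 at Rae1, so that here Cre lay between flox and WT as well. The window listed to Trafd1, a negative regulator of innate signalling (chr5:121342948-121343948, in an intron of NM_181421), held 141 and 145 against 71.1 and 69 (-1.03 ± 0.19, adjusted p = 2.31e-05). At the promoter of Morn2 (chr17:80289711-80290711) the levels were 79.1 and 63 against 32.4 and 31.8 (-1.15 ± 0.25), and -0.97 without flox replicate 1. At the promoter of Mars2, the mitochondrial methionyl-tRNA synthetase, they were 47.7 and 63.7 against 23.7 and 25.2 (-1.18 ± 0.29, adjusted p = 0.00148), which ended without flox replicate 2 (-0.96, adjusted p = 0.0737). The promoter of Pigu, a subunit of the GPI transamidase (61.7 and 56.8 against 28.7 and 30.5), and the windows of Cd180, Sfn, Fam57b and 4930521O17Rik completed the 15 with the lowest p, with log2 differences of -1.83 to -1. All 5 lost their call without Cre replicate 1, where they were -1.51 to -0.76, and Pigu also without flox replicate 1 (-0.94) and Cd180 and 4930521O17Rik without flox replicate 2 (-1.04 and -0.91).

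Along the genome the called windows were spread. In bins of 10 Mb, 80 of the 274 bins with a tested window held a call, none held 4 or more, and the fullest held 3. These were the bin of Gm1966 (3 higher of 118 tested) and 100 to 110 Mb of chromosome 5 (3 lower of 168). The latter were 4930428O21Rik, Gpat3, a glycerol-3-phosphate acyltransferase gene, and Dgkq, a diacylglycerol kinase gene. At Gpat3 H3K27ac was 25.8 and 58.9 against 20 and 14.6 (-1.27 ± 0.36), and at the Dgkq promoter 38.1 and 30.5 against 15 and 15.9 (-1.16 ± 0.36). The Gpat3 call ended without flox replicate 2 (-0.57) or Cre replicate 2 (-1.06, adjusted p = 0.165), and the Dgkq call without flox replicate 1 (-0.98), Cre replicate 1 (-1.11, adjusted p = 0.109) or Cre replicate 2 (-1.2, 0.1). By chromosome, chromosome 5 had 14 calls of 1475 (0.949%, 12 lower), chromosome 7 had 12 of 1533 (0.783%, 5 higher), and chromosome 8 had 0 of 1348.

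**Figure D4:**
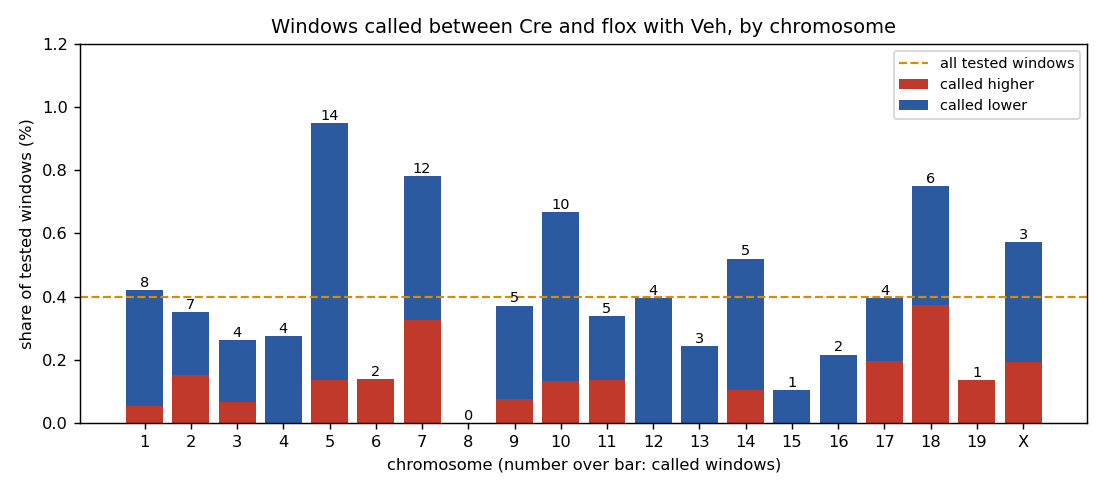
Share of tested windows called higher (red) and lower (blue) in Cre with Veh on each chromosome (y axis, %), with the number of called windows over each bar and the share over all tested windows (0.397%) as a dashed line. Chromosomes 5 and 7 stand highest with 14 and 12 calls, and the red part is tallest on chromosome 18 (3 of 801) and chromosome 7 (5 of 1533).

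The KLA libraries, which did not enter the Veh values, were read at the same windows. Of the 27 windows called higher, 15 had the same sign with KLA, 8 were called higher and 2 lower. Of the 73 called lower, 45 had the same sign, 8 were called lower and 1 was called higher. Over all windows 0.702% were called higher and 6.81% lower with KLA (7.52% in all), and the median was -0.38. The median KLA difference was 0.37 at the 27 and -0.11 at the 73, above the median of all windows in both sets.

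Promoters and distal windows were shifted to different degrees. Windows within 2 kb of a TSS had a median log2 difference of -0.28 and 90.3% of the 9985 were below 0. The 15212 distal windows had a median of -0.13 with 69.7% below 0. With TMM factors the medians were -0.07 and 0.07, so the direction of each class depends on the scaling. TMM factors move all windows by a like amount, so they could not change the order of the classes. PGC1b binding itself was measured by ChIP-seq in WT cells. The peaks used here, 45675 for PGC1b, are merged over Veh and KLA, as are those of the other factors. Part of them may thus be absent at rest. Of all tested windows, 60.4% had a PGC1b peak within 500 bp of the centre, as did 17 of the 27 called higher (63%) and 37 of the 73 called lower (50.7%). Windows with a peak were then put in 4 sets by its PGC1b tags. The median log2 difference was -0.23 in the 3812 with the weakest peaks (1.35 to 19.7 tags per 10 M) and -0.11 in the 3805 with the strongest (45.6 to 258). Within distal windows the medians went from -0.16 to -0.09 and within 2 kb of a TSS from -0.30 to -0.21. From the weakest to the strongest peaks the 4 medians were -0.23, -0.20, -0.17 and -0.11 by totals and -0.02, 0.01, 0.04 and 0.09 with TMM factors. The like shift of all windows could not change this order, and the set nearest to 0 depended on the scaling. Shares with a peak of NCoR, HDAC3, p300 or PU.1 were 69.1 to 73.6% of all tested windows, 55.6 to 66.7% of those called higher and 45.2 to 53.4% of those called lower.

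Ppargc1b has 1 tested window, at its promoter, with 51.6 and 49.9 in flox and 39.9 and 42.4 in Cre (-0.30 ± 0.27, adjusted p = 0.489). This window tells nothing of the deletion, which removes part of the gene body. The Cre knock-in locus, which differs between the genotypes, was also read. At the first exon of Lyz2, lysozyme 2, into which Cre was inserted (chr10:117281648-117282648), H3K27ac was 440 and 409 in flox and 257 and 237 in Cre, a log2 difference of -0.78 ± 0.09 (adjusted p = 3.49e-13). The groups lay far apart, and the difference was under 2-fold. Beyond the gene's end (chr10:117275669-117276669) it was 41.5 and 24.2 against 13.1 and 13.3 (-1.33 ± 0.39, adjusted p = 0.00893), a call that ended without flox replicate 1 (-0.88, adjusted p = 0.306), Cre replicate 1 (-1.32, 0.0805) or Cre replicate 2 (-1.34, 0.0905). The other 6 tested windows listed to Lyz2 or its neighbour Lyz1 had log2 differences of -0.60 to 0.23, none past the threshold, although with TMM factors 1 of them, in the 3′ UTR of Lyz1, stood at 0.44 (adjusted p = 0.0329). The lower H3K27ac at the Lyz2 exon was seen in both Cre libraries, and the part of the Cre insertion in it was not tested. The window with the most tags of the macrophage gene Spi1 held 842 and 852 in flox and 816 and 822 in Cre with Veh (-0.05 ± 0.06, adjusted p = 0.651), and 942 and 961 against 699 and 688 with KLA (-0.46 ± 0.06, adjusted p = 3.1e-12).

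Metabolic genes with which PGC1b is associated showed small differences. Of 80 windows listed to 58 genes of oxidative phosphorylation, 72 had a log2 difference below 0, with a median of -0.29 (-0.20 over all windows). Of these, 17 were lower and 1 was higher at an adjusted p under 0.05, as against 14.8 and 0.349% of all windows, and 1 was called. With TMM factors 54 of 80 were below 0, the median was -0.08, and none was lower at that threshold while 2 were higher. Of these 80 windows 58 lay within 2 kb of a TSS, a class whose median over all genes was -0.28. At the promoter of Cox8a, a cytochrome c oxidase subunit, H3K27ac was 171 and 193 in flox and 133 and 106 in Cre (-0.60 ± 0.14, adjusted p = 0.000711). The called window was in Ndufaf4, a complex I assembly factor, with 30.9 and 21.5 against 12.5 and 11.3 (-1.14 ± 0.42, adjusted p = 0.0456). It lost its call without any 1 of the 4 libraries, without flox replicate 1 (-0.85, adjusted p = 0.356), flox replicate 2 (-1.37, 0.0558), Cre replicate 1 (-1.22, 0.146) or Cre replicate 2 (-1.07, 0.229).

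None of the 22 windows of PGC1 and ERR regulators of mitochondria was called, and their median was -0.23 (-0.02 with TMM). Of the 22, 4 were lower at an adjusted p under 0.05, beside 14.8% of all tested windows. With TMM factors none of the 22 was lower at that threshold and 1 was higher. Among them the promoter of Nrf1, a regulator of respiratory chain genes, held 619 and 647 in flox and 479 and 506 in Cre (-0.36 ± 0.07, adjusted p = 7.01e-05, edgeR, with TMM -0.15, adjusted p = 0.305). Of 33 windows of the TCA cycle and fatty acid oxidation, 5 were lower (none with TMM factors), none was called, and the median was -0.25. The Ogdh promoter, of a TCA cycle enzyme, held 311 and 283 against 207 and 206 (-0.53 ± 0.11, adjusted p = 0.000184). Each of these promoters was lower in both Cre libraries than in both flox libraries, by less than 2-fold. Of all tested windows 50% were likewise lower in both Cre libraries, whatever the size of the difference.

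For lists of macrophage function, whose windows are mostly distal (17 of 64, 11 of 51 and 7 of 47 lay within 2 kb of a TSS), no test was made against the metabolic lists. Medians were -0.12 over 64 windows of TLR4-induced inflammatory genes (6 lower at an adjusted p under 0.05), -0.10 over 51 windows of alternative activation genes (5 lower) and -0.01 over 47 windows of osteoclast genes (2 lower), with no call in any of them. Targets of LXR and of lipogenesis had a median of -0.28 over 36 windows (7 lower, 1 higher), and genes of the NCoR complex -0.24 over 27 (6 lower). Of all tested windows 14.8% were lower and 0.349% higher at that threshold. With TMM factors no window of these 5 lists was lower at it, and 1, of the LXR and lipogenesis list, was higher. By TMM factors these 5 medians were 0.09, 0.10, 0.19, -0.07 and -0.03, so the sign of some depended on the scaling. Their order could not change, because TMM factors move all windows by a like amount. Examples were the promoter of Nfkbiz, an inducible regulator of NFκB targets (255 and 266 against 180 and 174, -0.56 ± 0.11), Elovl5, a fatty acid elongase (521 and 545 against 397 and 397, -0.42 ± 0.08), and the promoter of Egr2 (292 and 289 against 211 and 216, -0.45 ± 0.12). With TMM factors these were -0.35, -0.21 and -0.24, with adjusted p of 0.0572, 0.144 and 0.352.

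Markers of other cell types had few tested windows, though some of these held much H3K27ac. Of 12 B and T cell markers none had a tested window. The 3 windows of neutrophil markers summed to 93.1 and 114 in flox and 85.4 and 80.3 in Cre, the 3 of stromal markers to 183 and 141 against 132 and 152, and the 7 of erythroid and mast cell markers to 477 and 487 against 409 and 364. Of these 7 windows 5 were below 0. Among them the promoter of Tal1 held 311 and 325 in flox and 258 and 226 in Cre (-0.39 ± 0.10, adjusted p = 0.00216, edgeR, and -0.19 with TMM, adjusted p = 0.406). Those of 11 dendritic cell windows summed to 894 and 863 against 759 and 757, with 6 windows below 0 and 5 above (log2 differences of -0.64 to 0.73). The lowest of them, near Xcr1, a chemokine receptor of cross-presenting dendritic cells, fell from 229 and 237 to 148 and 151 (-0.64 ± 0.11, adjusted p = 8.98e-06, and -0.43 with TMM, adjusted p = 0.0181). The 28 windows of macrophage markers summed to 7960 and 8030 in flox and 7240 and 7140 in Cre. They include the windows of Lyz2, into which Cre was inserted, and the list's 1 called window is among those of Lyz2. The part of other cell types in the differences was not tested, and in bulk chromatin fewer cells of a type and less H3K27ac per cell cannot be told apart.

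**Figure D5:**
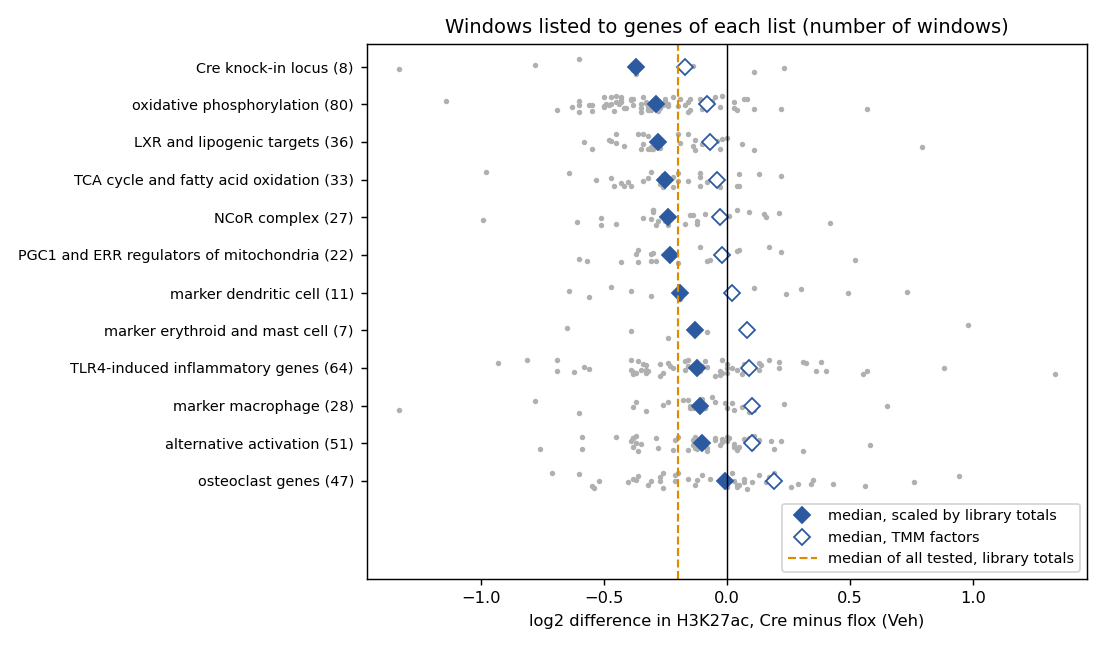
Log2 difference in H3K27ac (Cre minus flox, Veh, x axis) of each window (grey points) listed to the genes of each list of at least 5 windows, with the list's median scaled by library totals (filled) and with TMM factors (open). Medians by totals run from -0.37 at the Cre knock-in locus to -0.01 for osteoclast genes around the dashed median of all windows at -0.20, and TMM factors move every list to the right by a like amount.

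Short motifs were searched in the central 200 bases on both strands. The PU.1 core letters occurred in 39.6% of all tested windows, 14 of the 27 called higher (51.9%) and 27 of the 73 called lower (37%). The ERR letters AAGGTCA occurred in 2.94% of all, none of those called higher and 4 of those called lower (5.48%). The AP-1 letters TGANTCA occurred in 16.3, 18.5 and 12.3%, and the cAMP response element TGACGTCA in 1.24% of all and none of the called windows. Matches in so few windows are a description, and none of these shares was tested.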

How the data were processed

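The authors aligned reads to mm10 with Bowtie2 and used HOMER to count tags over windows without normalization, with at most 3 tags per position kept. The deposited values are raw counts, and library totals come from the file headers. Counts of the 8 libraries of the table were fitted by group in edgeR 4.0.16 under R 4.3.3 with the quasi-likelihood F-test (two-sided), those totals serving as library sizes, for windows with 16 or more tags in any library. SE is the log2 difference over the square root of F. The fit was tested on simulated data. Windows, lists and tests were chosen with earlier results of these data known. Named windows are the 15 called with the lowest p in each direction, those of Ppargc1b, Lyz1 and Lyz2, those of the fullest 10 Mb bins and, per list, those with the lowest p and the most tags. Other named windows (neighbours on chromosome 7, Trim30d, Nlrp1b and further windows at chromosome starts) were chosen after their values were seen. Deviations of replicates with the same number did not correlate between groups (-0.016 to 0.00798), so samples were treated as unpaired. WT DMSO, NCoR and factor tables of the series were scaled by their own totals, with peaks taken within 500 bp between centres. Sequence came from RefSeq's GRCm38.p6. The sequence of 1 window is not reported here. Alternatives were TMM or DESeq2 1.42.0 size factors, centring, the DESeq2 Wald test, other filters, the 4 Veh libraries, a replicate block, distal windows, omitting the fold minimum, and leaving out libraries in turn. Intervals and floors cover counting error only.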

Additional observations from a re-analysis of the deposited data

Results flagged for a closer look

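At the 16 named windows given first, the difference between genotypes was not the same with Veh and with KLA. Their interaction term in the edgeR fit (log2 difference with KLA minus that with Veh) was more than 2-fold at an adjusted p under 0.05. The interaction was negative, with a gain in Cre seen with Veh that was smaller, absent or turned with KLA, upstream of Gm1966 (-2.37 ± 0.25, adjusted p = 9.14e-18), at Met (-4.20 ± 1.05), Adora2a (-2.01 ± 0.50), Adgrf1 (-3.21 ± 0.96) and near Ptpn11 (-2.09 ± 0.76, adjusted p = 0.0361, and 0.0777 with TMM factors). It was also negative at Lyz1 (-1.53 ± 0.19) and at the Lyz2 window at -2942 bp from the TSS (-1.44 ± 0.19), where the difference with Veh did not pass the threshold (0.23 and 0.11) and Cre was lower with KLA (-1.29 and -1.33). It was positive, with a loss in Cre seen with Veh that was smaller or turned with KLA, at Trafd1 (1.37 ± 0.33), Pigu (1.49 ± 0.39), Sfn (2.53 ± 0.72), N4bp2l1 (1.87 ± 0.55), 4930521O17Rik (1.57 ± 0.48), 4930428O21Rik (1.35 ± 0.46), Tcf4 (2.15 ± 0.75), Zadh2 (1.2 ± 0.42) and Cd180 (1.18 ± 0.42). With TMM factors the other 15 of these windows kept their sign and stayed under an adjusted p of 0.05. A promoter window of Tbl1xr1, a gene of the NCoR complex, passed the same limits (-1.33 ± 0.12, adjusted p = 1.16e-26, edgeR). There the difference was -0.09 with Veh and -1.42 with KLA. Further named windows passed the adjusted p at under 2-fold, among them Tcirg1 (-0.76 ± 0.10), Stat6 (-0.66 ± 0.12) and the Lyz2 exon (-0.75 ± 0.14). Windows were named partly for a low p with Veh, and a high difference with Veh enters the interaction with the opposite sign.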

How the results depend on the processing

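The 100 calls with Veh became 37 with TMM factors (31 higher, 6 lower), 37 with DESeq2 size factors, 34 after centring, 12 by the Wald test with its own size factors (12 higher), 35 by that test with library totals, 32 among distal windows alone and 3819 without a fold minimum. The median log2 difference of -0.20 became 0 with TMM factors or centring, 0.01 with DESeq2 size factors in edgeR or in the Wald test, and -0.13 for distal windows. The scaling sets the median, and distal windows are fewer. The cause of the lower counts of the Wald test was not tested. Leaving out each Veh library gave 75 to 112 calls (15 to 28 higher) and medians of -0.22 to -0.19. Other filters (106 and 103 calls) and the 4 Veh libraries alone (107) stayed within 1.5 times. The replicate block, for numbers that did not pair the samples, gave 86 calls (25 higher, 61 lower), all among the 100. The 1894 calls with KLA became 751 with TMM factors, 1886 with the block and 1969 to 2210 without each KLA library. Interaction calls went from 1352 to 936 with TMM factors and 1327 with the block. The share of called windows with a PGC1b peak was 54%, 48% at 100 bp and 54% at 1000 bp. Called in all 13 settings across all windows were 5 windows, all higher (2 of Gm1966, 2 listed to Knop1, and Ptpn11). Of 64 named windows, 10 that were not called by any scaling turned from below to above 0 with TMM factors, DESeq2 size factors, centring or the Wald test with its own factors. They were Batf3 (0.02 to 0.03), Nfkbia (0.03 to 0.04), Cox4i1 (0.04 to 0.05), Lyz1 at 117330214 (0.07, 0.07, 0.06 and 0.09), Stat6 (0.08 to 0.09), Pdgfrb (0.11 to 0.12), Tbl1xr1 (0.11 to 0.12), Etfb (0.12 to 0.13), Tcirg1 (0.14) and Spi1 (0.16). Leaving out 1 Veh library at a time gave ranges across 0 at the intergenic Lyz1 windows (-0.67 to 0.03 and -0.65 to 0.78) and Pdgfrb (-0.24 to 0.08), each above 0 without flox replicate 1, and at the Lyz2 window at 117284714 (-0.06 to 0.26), below 0 without Cre replicate 1.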
